A study of Homo sapiens with 6 samples.

Results

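The 8 genes described here encode transcription factors that define or maintain intestinal epithelial identity: CDX1, CDX2, HNF4A, GATA6, KLF5, ELF3, FOXA2 and ATOH1. They were chosen by gene symbol from the 58302 genes of a NAT10 RNA immunoprecipitation table, and all 8 symbols were found there. CDX1 and CDX2 are caudal-type homeobox factors that activate enterocyte genes, and HNF4A is a nuclear receptor that acts with them on digestive and lipid-handling genes. GATA6 is a zinc-finger factor of endoderm and crypt epithelium, KLF5 a Krüppel-like factor of proliferating crypt cells, ELF3 an epithelial ETS factor, FOXA2 a forkhead pioneer factor of endoderm, and ATOH1 the basic helix-loop-helix factor that commits progenitors to goblet and other secretory cells. Such factors bind their own and each other's promoters and enhancers and are altered in some colorectal cancers (CRC).

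The study addressed which transcripts the RNA acetyltransferase NAT10 binds, and which carry its product N4-acetylcytidine (ac4C). RNA from the human CRC lines SW480 and DLD-1, both labelled wild type in genotype and without treatment, gave 6 libraries, 1 per group: for each line 1 Input library, 1 library of RNA recovered with NAT10 antibody (RIP) and 1 of fragmented RNA recovered with ac4C antibody (acRIP). SW480 and DLD-1 are established lines from colorectal adenocarcinomas, each a single culture model rather than an intestinal tissue. With 1 library per group no replicate spread exists, so every difference compared libraries, no p-value was computed between them, and a 2-fold difference was the rule of size.

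Levels are FPKM, fragments per kilobase of transcript scaled to sequencing depth, which allows genes to be compared per length. One table held RIP and Input of both lines. A second table, deposited with the acRIP data, held a further Input column for each line, called the acRIP-table Input here, and whether it came from the same library was not stated. The second table uses other gene lengths, so the level of a gene is not like against like between the tables. Fold differences are ratios of FPKM, and their 95% exact intervals came from whole reads recovered from the FPKM steps, so they cover counting error only. Recovered reads came to at least 25514585 in RIP SW480, 11315955 in Input SW480, 20963926 in RIP DLD-1 and 10772667 in Input DLD-1. Log2 differences were taken on log2(FPKM + 1), which understates changes of low genes.

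The RIP libraries went against their labels. Over 16278 protein-coding genes, the library labelled RIP SW480 correlated with Input DLD-1 at Pearson r = 0.945 and with Input SW480 at 0.872, and the library labelled RIP DLD-1 correlated with Input SW480 at 0.951 and with Input DLD-1 at 0.857. The acRIP-table Inputs followed the Inputs of their own label, at 0.962 for SW480 and 0.957 for DLD-1. These correlations are across genes, which are not independent replicates. The RIP differences below are therefore given against the Input of the same label and against that of the other label. Every SW480, DLD-1 or line named for a library below, with or without "labelled", is the label that the library carries. All 7 epithelial markers checked, among them EPCAM, CDH1 and the keratins KRT8, KRT18 and KRT19, were above 0 in all 6 expression columns, with summed FPKM of 908 to 3347, whereas leukocyte, endothelial, fibroblast and hepatocyte markers summed to at most 1.16 FPKM in any column. The lung and pancreas endoderm markers summed to 1.43 to 3.22 FPKM, with PDX1, a factor of pancreas and duodenum, the highest of them in all 6.

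For 6 of the 8 genes the reference promoter table held a window, and RefSeq sequence (GRCh38.p14) of the 250 bases before the start is shown for 3 of them. Each window shown holds 2 or 3 matches to binding motifs of the members or of related factors, more than any window not shown. The windows shown are thus those of the members with the most matches. How many of all windows hold as many was not counted, so these numbers do not set the members apart. Capitals mark every match, on either strand, to the motifs searched. The letters were TTTATG for the CDX factors, AGATAA for the GATA factors, CAAAG for the core of an HNF4 site and GTTAAT for a short site of HNF1. They were TGTTTAC for the FOXA factors, GGGCGG for the KLF and SP factors, GGAAGT for the ETS factors and CAGCTG for the E-box that ATOH1 binds. No capitals of different motifs overlap in these windows. CDX2 lies on the minus strand at chr13:27969316-27969565, KLF5 on the plus strand at chr13:73058755-73059004, and HNF4A on the plus strand with its upstream start window at chr20:44355449-44355698 and its downstream start window at chr20:44400989-44401238.
CDX2: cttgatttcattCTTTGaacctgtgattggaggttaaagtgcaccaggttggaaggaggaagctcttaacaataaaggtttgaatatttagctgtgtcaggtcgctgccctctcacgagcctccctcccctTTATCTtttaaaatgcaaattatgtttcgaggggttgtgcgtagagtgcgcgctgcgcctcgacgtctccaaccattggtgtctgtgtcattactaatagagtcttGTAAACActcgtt
KLF5: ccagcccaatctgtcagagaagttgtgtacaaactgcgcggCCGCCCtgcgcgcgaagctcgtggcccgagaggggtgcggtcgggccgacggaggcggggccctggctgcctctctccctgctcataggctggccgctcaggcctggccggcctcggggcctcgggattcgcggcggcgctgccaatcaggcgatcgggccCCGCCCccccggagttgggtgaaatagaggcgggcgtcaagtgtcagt
HNF4A, upstream start: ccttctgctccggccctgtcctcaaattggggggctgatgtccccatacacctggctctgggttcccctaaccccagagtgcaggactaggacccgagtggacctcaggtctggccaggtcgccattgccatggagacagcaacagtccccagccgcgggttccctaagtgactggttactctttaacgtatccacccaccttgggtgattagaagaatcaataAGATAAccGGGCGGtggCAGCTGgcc
HNF4A, downstream start: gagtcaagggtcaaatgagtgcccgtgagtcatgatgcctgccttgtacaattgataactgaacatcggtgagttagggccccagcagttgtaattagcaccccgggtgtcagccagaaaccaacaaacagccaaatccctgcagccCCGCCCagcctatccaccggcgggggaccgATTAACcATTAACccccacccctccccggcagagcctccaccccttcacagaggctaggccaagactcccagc
The CDX2 window held a FOXA match that began 13 bases before the start, a GATA match 119 bases before it and an HNF4 core 238 bases before it. The downstream HNF4A window held a pair of neighbouring HNF1 sites, 73 and 66 bases before the start, besides 1 KLF and SP match at 103 bases. The upstream window held 1 GATA match at 26 bases, 1 KLF and SP match at 18 and 1 E-box at 9. Both KLF5 matches were to the GC-rich motif of its own family, at 209 and 48 bases. Over all 35116 windows of this length the FOXA motif was found in 2.98%, the HNF1 short site in 6.23%, GATA in 9.17%, CDX in 9.64%, the ATOH1 E-box in 14.0%, ETS in 19.5%, the HNF4 core in 42.1% and KLF and SP in 42.6%. A match describes letters, not a bound site. The single windows of ELF3 and the other KLF5 start held none of the motifs, GATA6 held 1 E-box and ATOH1 held 1 HNF4 core. CDX1 and FOXA2 are without a window in that table.

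The levels fell into a group of 4 genes that were high in the Input labelled SW480, and a pair that were higher in the Input labelled DLD-1. KLF5, CDX2, GATA6 and ELF3 formed the first group, HNF4A and FOXA2 the pair, CDX1 was barely detected and ATOH1 was listed at 0 in every column. Among the 6 genes with at least 1 FPKM in both Inputs of the RIP table, 4 were at least 2-fold higher in Input SW480 than in Input DLD-1 and 1 was at least 2-fold lower, where 7.25% and 9.29% of the 12324 genes passing the same minimum were. In bulk RNA, fewer cells that express a gene and less RNA per cell cannot be told apart.

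**Figure D1:**
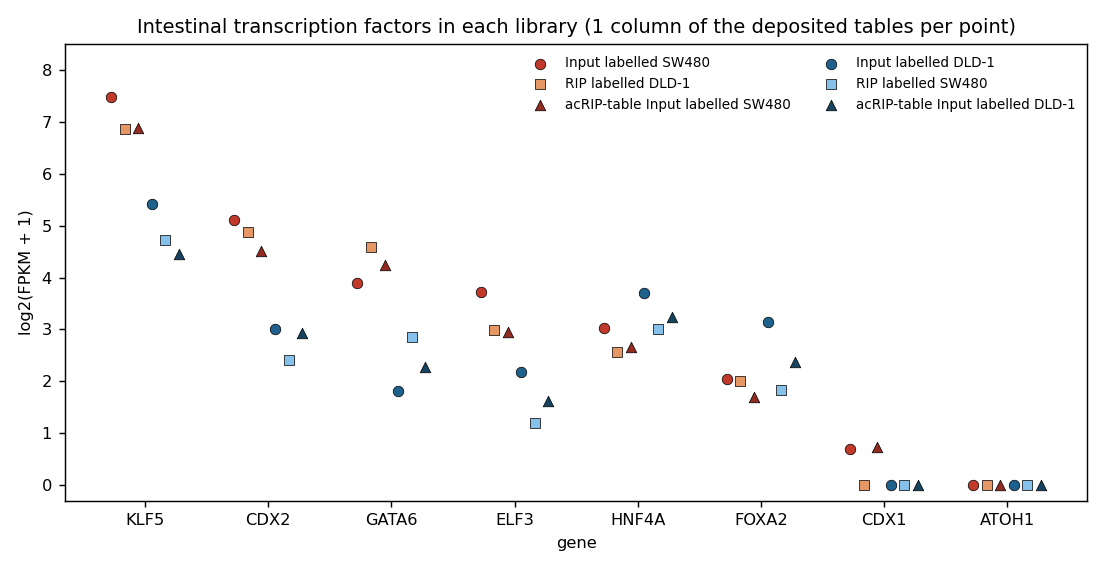
Level of each of the 8 genes on the log2(FPKM + 1) scale in 6 columns, 4 of the RIP table and 2 Inputs of the acRIP table, with 1 point per column and no error bars. For KLF5, CDX2, GATA6 and ELF3 the 3 reddish points (Input and acRIP-table Input labelled SW480, RIP labelled DLD-1) lie above all 3 bluish ones, and ATOH1 lies at 0 throughout.

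KLF5 (ENSG00000102554, chromosome 13, 73054976 to 73077538) was the most abundant of the 8 in every column. Its level was 176 FPKM in Input SW480 and 41.5 in Input DLD-1, 25.4 in RIP labelled SW480 and 115 in RIP labelled DLD-1, and 117 and 21 in the acRIP-table Inputs of SW480 and DLD-1. Input SW480 was 4.25-fold (4.05 to 4.46) above Input DLD-1 and the acRIP-table Inputs differed 5.56-fold. In Input SW480 it exceeded 98.9% of the detected protein-coding genes.

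CDX2 (ENSG00000165556, chromosome 13, 27960918 to 27969315), the dominant caudal factor of colonic epithelium, was high in the same 3 columns as KLF5. It stood at 33.4 FPKM in Input SW480 and 7.0 in Input DLD-1, at 4.31 in RIP labelled SW480 and 28.3 in RIP labelled DLD-1, and at 21.9 and 6.59 in the acRIP-table Inputs. The Inputs differed 4.77-fold (4.27 to 5.33), and 3.33-fold between the acRIP-table Inputs. In the RIP table the lower of its 2 high columns, at 28.3 FPKM, stood well clear of the higher of its 2 low ones, at 7.0.

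GATA6 (ENSG00000141448, chromosome 18, 22169589 to 22202528) was 5.53-fold (4.57 to 6.72) higher in Input SW480 than in Input DLD-1, an interval that overlaps that of CDX2. Its values were 13.8 FPKM in Input SW480, 2.5 in Input DLD-1, 6.27 in RIP labelled SW480, 22.9 in RIP labelled DLD-1 and 17.9 and 3.87 in the acRIP-table Inputs, which differed 4.63-fold. Unlike KLF5 and CDX2, it was lowest in an Input of the RIP table and highest in a RIP library. Its antisense partner GATA6-AS1 was at 3.02 FPKM in Input SW480, 0.373 in Input DLD-1, 0.0944 in RIP labelled SW480 and 1.84 in RIP labelled DLD-1. Whether the counting used strand was not stated, so the reads of a gene and of its antisense RNA cannot be told apart.

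ELF3 (ENSG00000163435, chromosome 1, 202010587 to 202017183) was at 12.3 FPKM in Input SW480, 3.53 in Input DLD-1, 1.29 in RIP labelled SW480, 6.94 in RIP labelled DLD-1 and 6.71 and 2.08 in the acRIP-table Inputs. The Inputs differed 3.47-fold (3.01 to 4.02) and the acRIP-table Inputs 3.22-fold. A second gene model, AL691482.3, overlaps ELF3 on the same strand and was at 1.52 FPKM in Input SW480, 0.901 in Input DLD-1, 0 in RIP labelled SW480 and 0.764 in RIP labelled DLD-1, so the split of reads between the models is uncertain.

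All 4 genes lay above both Input DLD-1 and RIP labelled SW480 in both Input SW480 and RIP labelled DLD-1, a separation that 18.1% of the 12324 genes showed in this direction and 22.3% in the opposite one. Neither HNF4A nor FOXA2 separated the columns in either direction.

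HNF4A (ENSG00000101076, chromosome 20, 44355699 to 44434596) was at 7.15 FPKM in Input SW480 and 12.1 in Input DLD-1, at 7.07 in RIP labelled SW480 and 4.92 in RIP labelled DLD-1, and at 5.36 and 8.51 in the acRIP-table Inputs. Input DLD-1 was 1.69-fold (1.53 to 1.87) above Input SW480, below the rule of 2-fold, and 1.59-fold in the acRIP table. FOXA2 (ENSG00000125798, chromosome 20, 22580998 to 22585490) was at 3.11 and 7.83 FPKM in these Inputs, at 2.58 and 3.02 in RIP labelled SW480 and DLD-1, and at 2.23 and 4.16 in the acRIP-table Inputs. Input DLD-1 was 2.52-fold (2.01 to 3.18) higher, against 1.86-fold in the acRIP table. Both genes were thus higher in DLD-1 Inputs in both tables, while RIP labelled SW480 exceeded RIP labelled DLD-1 for HNF4A by 1.44-fold (1.32 to 1.57) and the RIP libraries did not differ beyond counting error for FOXA2, at a ratio of 0.855 (0.693 to 1.05).

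CDX1 (ENSG00000113722, chromosome 5, 150166778 to 150184558) was detected only in SW480 Inputs, at 0.623 FPKM from 16 reads in the RIP table and 0.672 FPKM in the acRIP table, and was listed at 0 in both RIP libraries and in both DLD-1 Inputs. Against a floor of 3 counts per library, it was at least 4.93-fold higher in Input SW480 than in Input DLD-1, at least 10.8-fold lower in RIP labelled SW480 than in Input SW480 and at least 9.19-fold lower in RIP labelled DLD-1 than in Input SW480. ATOH1 (ENSG00000172238, chromosome 4, 93828753 to 93830964) was listed at 0 in all 6 columns, which allows up to 3 counts in each, so neither gene entered the counts of 2-fold differences.

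The order of the members, compared per length on the FPKM scale, differed between the columns. In Input SW480, RIP labelled DLD-1 and the acRIP-table Input SW480 it ran KLF5, CDX2, GATA6, ELF3, HNF4A, FOXA2 from highest to lowest. In Input DLD-1 it ran KLF5, HNF4A, FOXA2, CDX2, ELF3, GATA6, and in RIP labelled SW480 KLF5, HNF4A, GATA6, CDX2, FOXA2, ELF3. The acRIP-table Input DLD-1 gave KLF5, HNF4A, CDX2, FOXA2, GATA6, ELF3, which is not the order of Input DLD-1. In the 4 columns of the RIP table, neighbours whose counting intervals overlapped were GATA6 (12.8 to 14.8 FPKM) and ELF3 (11.5 to 13.1) in Input SW480, FOXA2 and CDX2 in Input DLD-1, and HNF4A and GATA6 in RIP labelled SW480.

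When RIP was set against the Input of the same label, 4 members were at least 2-fold lower and none at least 2-fold higher in SW480, against 16.0% and 15.6% of the 12324 genes. In the pair labelled DLD-1, 3 members were at least 2-fold higher and 2 at least 2-fold lower, against 15.1% and 19.2%. Of the 6 members 3, KLF5, CDX2 and GATA6, were at least 2-fold below Input in the first pair and at least 2-fold above it in the second, a combination found in 2.25% of all genes tested (277). The medians over the 6 were -1.78 and 1.13 on the log2 scale, where those of all genes tested were 0.05 and -0.05. The protein-coding genes alone had a median shift of 0.18 in the SW480 pair, and centring on it changed the direction of no member.

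CDX2 in RIP labelled SW480 was 7.75-fold (7.03 to 8.55) below its Input and in RIP labelled DLD-1 4.05-fold (3.64 to 4.52) above its Input. KLF5 was 6.93-fold (6.64 to 7.24) lower in the one and 2.77-fold (2.64 to 2.91) higher in the other. For GATA6 the decrease was 2.20-fold (1.98 to 2.44) and the increase 9.18-fold (7.67 to 11.1). These 3 genes moved in opposite directions between the labels by far more than counting error.

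ELF3 was 9.5-fold (8.12 to 11.2) lower in RIP than in Input under label SW480 and 1.97-fold (1.70 to 2.28) higher under label DLD-1, or 0.81 on the log2(FPKM + 1) scale, so it stayed under the rule of 2-fold. HNF4A did not differ from Input beyond counting error under label SW480, at a ratio of 0.989 (0.901 to 1.09), and was 2.46-fold (2.24 to 2.70) lower under label DLD-1. FOXA2 had a ratio of 0.830 (0.652 to 1.06) under label SW480 and was 2.60-fold (2.14 to 3.16) lower under label DLD-1.

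**Figure D2:**
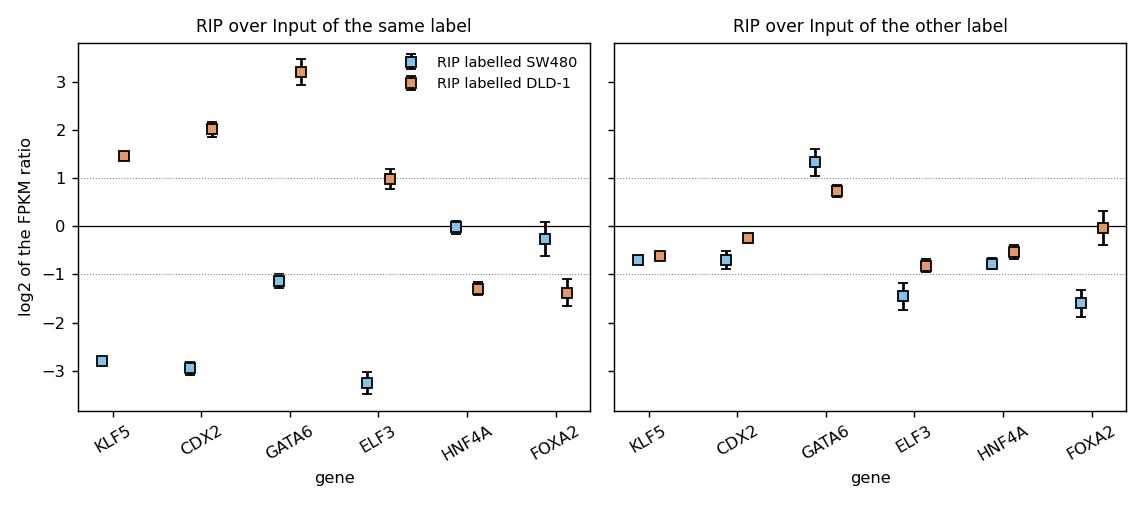
Log2 of the FPKM ratio of each RIP library over an Input of the RIP table, on the left over the Input of the same label and on the right over the Input of the other label, for the 6 genes with at least 1 FPKM in both Inputs. Bars are 95% exact counting intervals, some smaller than the symbol, and dotted lines mark 2-fold. On the left KLF5, CDX2, GATA6 and ELF3 lie on opposite sides of 0, and on the right GATA6 lies above 0 in both.

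Set against the Input of the other label, the opposite directions were gone. In RIP labelled SW480 over Input DLD-1, the log2(FPKM + 1) difference was -0.59 for CDX2, -0.69 for KLF5, -0.98 for ELF3, -0.70 for HNF4A and -1.30 for FOXA2, and in RIP labelled DLD-1 over Input SW480 it was -0.23, -0.61, -0.74, -0.46 and -0.03 in that order. GATA6 alone of the 6 was higher in both, by 2.51-fold (2.08 to 3.06) and 1.66-fold (1.53 to 1.81). RIP above the other label's Input in both libraries was found for 41.2% of all genes tested.

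By the rule of 2-fold, GATA6 was higher and FOXA2 lower in RIP labelled SW480 over Input DLD-1, against 9.24% and 11.7% of all genes tested. None of the 6 passed in either direction in RIP labelled DLD-1 over Input SW480, against 9.36% higher and 11.8% lower. Over the scaled acRIP-table Input of the other label the GATA6 difference was 0.08 for RIP labelled SW480 and -0.20 for RIP labelled DLD-1 on the log2 scale. That divisor uses other gene lengths, which a scale factor common to all genes does not correct for a single gene. It therefore cannot decide whether the GATA6 difference holds. Within the RIP table, none of the 6 was above Input in both RIP libraries under both choices of Input. GATA6 missed this because RIP labelled SW480 was 2.20-fold below the Input of its own label.

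The RIP libraries were also set against each other without any Input. In all, 4 members were at least 2-fold lower in RIP labelled SW480 than in RIP labelled DLD-1 and none higher, against 6.17% lower and 7.60% higher of all genes tested. CDX2 was 6.58-fold (5.99 to 7.24) lower, ELF3 5.38-fold (4.59 to 6.32), KLF5 4.52-fold (4.33 to 4.72) and GATA6 3.66-fold (3.36 to 3.99). These are the genes that were at least 2-fold higher in Input SW480 than in Input DLD-1, and in the acRIP-table Inputs the same 4 again passed upwards and none downwards, against 9.52% and 9.60% of all genes tested.

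Peaks of ac4C, called by the authors for each line and on both lines pooled, were listed in 2 of the 8 genes. Of the 6 members with enough Input, 1 had a peak in the SW480 list (ELF3) and 2 in the DLD-1 list (ELF3 and KLF5), against 44.2% and 48.8% of the 12324 genes, and with 6 members such counts are not set apart from the background. CDX1, CDX2, HNF4A, GATA6, FOXA2 and ATOH1 had no peak in any of the 3 lists, and no other gene's peak lay in their spans. CDX2, without a peak, had 1976 recovered reads in Input SW480, more than the 895 of ELF3. Those are reads over whole genes in the RIP table, and whether level or depth bears on the missing peaks was not tested.

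In ELF3 the SW480 list held 1 peak, chr1:202013817-202015990 on the plus strand (GRCh38, starts counted from 1), in 2 blocks of 208 and 782 bases, with a 77-fold enrichment over Input and a caller's p of 6.3e-96. It was classed as exonic and its fold exceeded that of 84.2% of the peaks in that list. In it lay 5 listed sites of the 12-base ac4C pattern that the authors searched for.

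The DLD-1 list held 3 shorter peaks in ELF3. One of 151 bases lay in an exon near the 5′ end at chr1:202011480-202011630, with an 8.65-fold enrichment at an FDR of 0.0309, and had no counterpart in the SW480 list. The others lay in the 3′ untranslated region at chr1:202015361-202015510 and chr1:202015690-202015990, with 21.2-fold and 43.3-fold enrichment. Both fell inside the SW480 peak and shared 451 bases with it, though neither covered 50% of that longer peak. Fold values were called in each library separately and are not compared between lines.

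Of the 6 pattern positions listed in ELF3 over the 3 lists, 2 were in all of them, at positions 202015714 and 202015867 of chromosome 1. AL691482.3, the overlapping gene model, was given peaks of its own, 1 in the SW480 list at 78.1-fold and 2 in the DLD-1 list, which overlap the SW480 peak of ELF3 and the first pair of its DLD-1 peaks. Those cannot be assigned to ELF3 alone, whereas no peak of AL691482.3 covers the DLD-1 peak that was 43.3-fold enriched.

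KLF5 had a single peak, chr13:73077302-73077512, 211 bases long in the 3′ untranslated region, which ended 26 bases before the end of the gene. It was 54.3-fold enriched in the DLD-1 list with a caller's p of 1.6e-16, more than 87.3% of the peaks there, and no peak was listed for SW480. In the pooled list the same interval had a 3.76-fold enrichment, more than 7.12% of the peaks. No site of the 12-base pattern was listed in it. KLF5 was the more abundant in the Input labelled SW480, while its peak was listed under label DLD-1. Whether the level of a gene bears on its peaks was not tested.

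**Figure D3:**
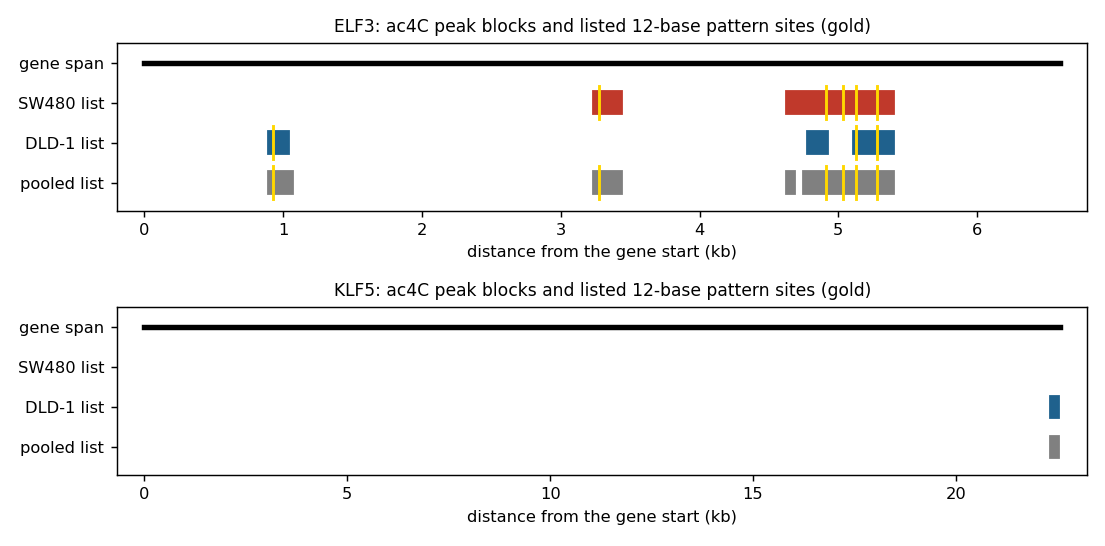
Peak blocks of ac4C along ELF3 (top) and KLF5 (bottom), with distance from the gene start in kilobases on the horizontal axis and 1 row per peak list under the gene span. Gold lines mark listed sites of the 12-base pattern, 5 in the SW480 peak of ELF3, 3 in its DLD-1 peaks and none in KLF5.

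Other genes of the same network were read from 3 lists: 21 further intestinal transcription factors, 24 enterocyte genes and 14 secretory lineage genes. Of the 10 further factors with enough Input, 8 were at least 2-fold lower in RIP than in Input under label SW480 and none higher, while 5 were higher and 1 lower under label DLD-1. Between the Inputs, 5 were at least 2-fold higher in SW480 and 1 lower, against 7.25% and 9.29% of all genes tested. Their median log2 difference was 1.35, beside -0.03 over all genes tested and 1.80 over the members. Over the 3 lists together 15 of 59 genes had enough Input, 10 of them lower and none higher under label SW480, 9 higher and 1 lower under label DLD-1, against the 16.0%, 15.6%, 15.1% and 19.2% of all genes given above in that order. With the labels of the Inputs crossed, 1 of the 15 was higher and 1 lower in RIP labelled SW480. In RIP labelled DLD-1 none was higher and 1 lower. Over all genes tested the shares were 9.24%, 11.7%, 9.36% and 11.8% in that order. The further factors gave 1 lower and none higher in each RIP library with the labels crossed.

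SOX9, a factor of crypt progenitors, was at 297 FPKM in Input SW480, 58.7 in Input DLD-1, 51.4 in RIP labelled SW480 and 241 in RIP labelled DLD-1. FOXA1, a forkhead relative of FOXA2, followed it at 67.2, 13.6, 12.7 and 74.7 in that order, the opposite direction to FOXA2 in the Inputs. HES1, the Notch effector that represses ATOH1, was at 57.5, 42.3, 14.6 and 24.6 FPKM, below both Inputs in both RIP libraries. FOXA3, the third forkhead of the family, was the single listed gene above its labelled Input by 2-fold in both RIP libraries, at 1.83 and 1.72 FPKM against 0.138 and 0.149, but from only 2 reads in each Input, with ratios of 13.3 (3.51 to 113) and 11.5 (3.0 to 98.2), and of 12.3 (3.24 to 104) and 12.5 (3.25 to 106) with the labels crossed.

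Of the 24 enterocyte genes, 9 were listed at 0 in all 6 columns and 4 had enough Input. None of the 4 was higher and 2 were lower under label SW480, and all 4 were higher under label DLD-1. Over all genes tested the shares were 15.6%, 16.0% and 15.1% in that order. With the labels crossed, 1 was higher in RIP labelled SW480, against 9.24% of all genes tested. None passed in RIP labelled DLD-1, against 9.36% higher and 11.8% lower. CDH17, an intestinal cadherin and known CDX2 target, was at 38.7 FPKM in Input SW480, 1.85 in Input DLD-1, 2.54 in RIP labelled SW480 and 61.7 in RIP labelled DLD-1. KRT20, a keratin of differentiated colonocytes, was at 29.2, 0.0426, 0 and 23.9, and the membrane mucin MUC13 at 25.9, 3.89, 3.94 and 28.8. These 3, named for their Input level, were high in the columns in which CDX2 was high, but the list was not uniform. Named after their values were seen, LGALS4 was at 0.936 FPKM in Input SW480 and 4.78 in Input DLD-1, ALPI at 0 and 2.30 and ANPEP at 0.614 and 1.61.

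The secretory list had 1 gene with enough Input and 4 at 0 in all 6 columns, and that 1 gene passed 2-fold in neither label. AGR2, a disulfide isomerase of goblet cells, was at 59.5 FPKM in Input SW480, 0.667 in Input DLD-1, 0.0949 in RIP labelled SW480 and 155 in RIP labelled DLD-1, and the goblet peptide TFF3 at 6.48, 0.0668, 0 and 16.6. Other genes of the list, named after their values were seen, were low throughout or higher in Input DLD-1: MUC2 was at 0.140 FPKM in Input SW480 and 0.205 in Input DLD-1, FCGBP at 0.0510 and 0.821 and CHGA at 0.0995 and 0.754, and CLCA1 and ZG16 were listed at 0. DLL1, a Notch ligand of secretory precursors, was at 2.52, 0.583, 0.978 and 0.400 FPKM. Of the 4 antisense or neighbouring RNAs none had enough Input, HNF4A-AS1 was at 2.43 FPKM in Input SW480 and 0.114 in Input DLD-1 where HNF4A itself was the higher in DLD-1, ELF3-AS1 was at 0.434 and 0, and LINC00261 beside FOXA2 was at 0 in all 6 columns.

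**Figure D4:**
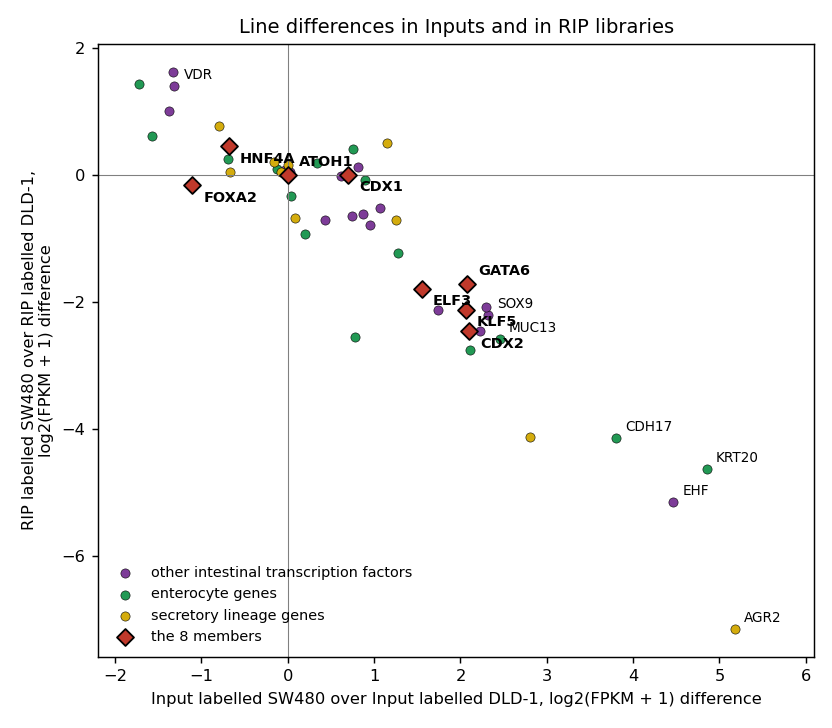
Difference between the Inputs labelled SW480 and DLD-1 (horizontal) against that between the RIP libraries of the same labels (vertical), both as log2(FPKM + 1) differences, for the 8 members (diamonds) and the genes of the 3 lists (circles), with no library shared between the axes. KLF5, CDX2, GATA6 and ELF3 lie at 1.55 to 2.1 on the horizontal and -1.72 to -2.47 on the vertical axis, on the side opposite to that of HNF4A. FOXA2 lies at -1.10 on the horizontal and -0.17 on the vertical axis, negative on both.

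The likeness of the members to each other and to other genes was measured as the Euclidean distance of log2(FPKM + 1) over the 6 columns, each gene centred on its own mean. The nearest members were FOXA2 and HNF4A at 0.551, then CDX2 and KLF5 at 0.771, CDX2 and ELF3 at 0.799 and ELF3 and KLF5 at 0.946, while GATA6 was 1.42 from CDX2, its nearest. Distances between a gene of the first group and HNF4A or FOXA2 ran from 2.62 to 3.49. Among protein-coding genes of like mean level, the nearest to CDX2 were HIST1H2BN at 0.577 and CITED2 at 0.581, to KLF5 ARHGAP32 at 0.408 and SOX9 at 0.490, to GATA6 PAPSS2 at 0.553 and PTPRK at 0.658, and to ELF3 DUSP8 at 0.274 and TRIM15 at 0.389. HNF4A lay nearest to ZNF142 at 0.117 and TMEM44 at 0.169, and FOXA2 to ZNF576 at 0.332 and GUCA1B at 0.352. The points share libraries and depth, so these distances only describe the columns.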

How the data were processed

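Per the labels, the authors sequenced 1 Input, 1 NAT10 RIP and 1 ac4C acRIP library of SW480 and of DLD-1. The authors deposited an FPKM table for RIP-seq, and their processing notes name cutadapt 2.5, HISAT2 2.1.0 and GRCh38. The counting tool, its strand setting and the peak caller are not given in the sources used here. The second deposited table gave no unit and was read as FPKM, since its values have the same range. Its gene lengths differ from those of the RIP table, so ratios of RIP over acRIP-table Input are not like against like for single genes. The deposited peak lists gave a p-value, a fold over Input, a score that is the base-10 logarithm of the FDR (an error cell in 328 to 640 peaks of each list) and a count of 12-base pattern sites, per library and pooled. The 3 deposited columns of RIP over Input ratios, the authors' own comparison, were not used. Peak starts were shifted by 1 base to count from 1.

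Groups were taken from the sample titles. Whole reads were recovered from the FPKM steps, for 99.9% of genes above 0 in at least 2 columns within 0.001 reads, and gave exact binomial intervals (Clopper-Pearson, 95%). Recovery was tested on simulated data. Differences were taken on log2(FPKM + 1), genes tested had at least 1 FPKM in both Inputs of the RIP table, and 2-fold was the rule of size. Python 3.11.15, pandas 2.3.3, numpy 2.4.6, scipy 1.17.1 and matplotlib 3.10.9 were used. Named genes were the members, the 3 genes of each list with the highest mean Input FPKM, the listed genes past 2-fold in the same direction for both labels, and the 2 nearest genes of each member above 1 FPKM, among genes within 1 log2 unit of its mean level. The 8 members and the lists were chosen with earlier results of these data known. Alternatives were a pseudocount of 0.1, other Inputs, centring, recovered reads, a fold of 1.5, no minimum level, an FDR below 0.05, the pooled peak list and 50% overlap.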

Additional observations from a re-analysis of the deposited data

Results flagged for a closer look

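In 4 genes the RIP over Input difference had opposite signs under the 2 labels, with 1 library in each group. The share of all genes with opposite signs was not counted. The separation of columns described above for these 4, which implies opposite signs, was found in 18.1% of the 12324 genes. The reverse separation was found in 22.3%. The log2(FPKM + 1) difference under label SW480 minus that under label DLD-1 was -4.57 for CDX2, -4.19 for KLF5, -3.80 for GATA6 and -3.34 for ELF3. These differences between the labels were not tested, since no replicate exists. With the other label's Input of the RIP table, the signs under both labels were the same for each of the 4.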

How the results depend on the processing

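The Input chosen changed the most. With the other line's Input as divisor, the log2 difference of GATA6 under label SW480 turned to 1.06, and those of CDX2 and KLF5 under label DLD-1 to -0.23 and -0.61. With the other line's acRIP-table Input, GATA6 under label SW480 was 0.081, and CDX2, GATA6 and KLF5 under label DLD-1 were -0.19, -0.20 and -0.58. Values over acRIP-table Inputs mix the gene lengths of both tables, so for a single gene they are not like against like. With the other line's Input, members at least 2-fold higher under label SW480 went from 0 to 1 and lower from 4 to 1 (2 with the acRIP-table Input), and under label DLD-1 higher from 3 to 0 and lower from 2 to 0 with either. With the acRIP-table Input of the same label, 1 member was lower under label DLD-1, and between the acRIP-table Inputs the count lower in SW480 went from 1 to 0.

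Over the 3 lists, counts under label SW480 were 1 higher at a fold of 1.5, 5 higher with no minimum level, and 1 higher and 1 lower with the Input of the other label. Under label DLD-1 they were 16 higher and 5 lower with no minimum level, 2 lower at a fold of 1.5 and 0 higher with the Input of the other label. With no minimum level the counts cover more than the 15 genes with enough Input. The shares over all genes at a fold of 1.5 or with no minimum level were not counted, so those counts have no background. The pooled list gave 4 peaks in members where the SW480 list gave 1, and at 50% of each peak 0 DLD-1 peaks were shared where 2 were. The other 32 counts stayed within 1.5 times, and of the values for single genes 49 moved by less than their interval, 46 moved by more and 7, each past 2-fold before, changed sign. ELF3, under 2-fold, went from 0.81 to -0.74 under label DLD-1 with the other line's Input. The cause was not tested. No paired analysis was possible because the groups share fewer than 2 replicate numbers, each holding 1 library. A fit that takes the 2 lines as replicates was not made. Reads limit CDX1, ATOH1 and FOXA3, and depth limits which peaks can be called.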
